A study of Mus musculus with 11 samples.

Results

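Luminal epithelial identity genes were followed as a set of 10 named genes in RNA from whole inguinal mammary glands. The set holds 4 keratins (Krt7, Krt8, Krt18 and Krt19), 2 adhesion molecules (Epcam and Cdh1), 3 transcription factors (Gata3, Foxa1 and Ehf) and the receptor tyrosine kinase Kit. They are 10 of the 22196 genes obtained from the deposited tables, and all 10 were among the 12716 genes tested. The knockout group had 6 glands of genotype Tsc1-fl/fl; Adipoq-Cre-Tg/+ and the wild-type group 5 glands of genotype Tsc1-fl/fl; Adipoq-Cre-+/+, so that both groups carried floxed Tsc1 alleles and were labelled with the same strain, Adipocyte Tsc1 Knockout. Adipoq-Cre is active in adipocytes, so the deletion was aimed at fat cells and not at epithelial cells. All glands were labelled PND16.5 and were taken 16 days after delivery from mice that had milk and normal chow. The labels do not say whether the age is that of the mice or of their pups, and they name no litter or batch.

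Luminal cells line the inside of mammary ducts and alveoli and make milk during lactation, and an outer layer of contractile myoepithelial cells surrounds them. Keratins form filaments only as pairs of a type II and a type I protein. Krt8 with Krt18 is the common pair of simple epithelia, while Krt7 is a further type II and Krt19 a further type I keratin of ducts and progenitors. E-cadherin, the product of Cdh1, joins neighbouring epithelial cells, and Epcam is a surface glycoprotein of epithelial cells. Gata3 maintains the luminal lineage, Foxa1 acts with the estrogen receptor in hormone-sensing luminal cells, Ehf is an epithelial factor of the ETS family, and Kit marks luminal progenitors as well as mast cells and melanocytes.

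Depth was 25817975 to 37894237 estimated reads per library. Genes for milk proteins, a list of 15 genes, took 62.9% to 68.9% of the reads of knockout and 66.5% to 72.9% of those of wild-type libraries, so that secretory luminal RNA dominated every gland. Tsc1, the targeted gene, lay between 8.30 and 11.9 CPM (reads per 1e6 after TMM scaling) in the knockout glands and between 9.54 and 12.1 CPM in the wild type; cells without Cre contribute Tsc1 reads too, so this does not check the labels. Libraries differed in other tissue. Knockout 1 held 2042 CPM of 6 skeletal muscle genes, against 2.16 to 159 CPM in the other knockout and 1.35 to 174 CPM in the wild-type libraries. Knockout 2 held 19.7 CPM of 7 skin and melanocyte genes, against 0.877 to 4.73 CPM elsewhere. The 10 lymphocyte genes summed to 79.5 CPM in Wild-Type 5 and 58.4 CPM in Wild-Type 2, and to at most 18.7 CPM in each of the other 9. In bulk tissue, fewer cells of a type and less RNA per cell cannot be told apart.

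The transcript start regions of 3 members whose levels moved together over the libraries, Krt8, Krt18 and Epcam, are printed here from 250 bases before to 50 bases after the RefSeq start (GRCm38.p6), 5′ to 3′ on the gene's strand. Capitals mark CAGGTG or its reverse complement CACCTG, a form of the E-box that repressors of the Snail and Zeb families are known to bind.
Krt8, chr15:102004293-102004592, minus strand: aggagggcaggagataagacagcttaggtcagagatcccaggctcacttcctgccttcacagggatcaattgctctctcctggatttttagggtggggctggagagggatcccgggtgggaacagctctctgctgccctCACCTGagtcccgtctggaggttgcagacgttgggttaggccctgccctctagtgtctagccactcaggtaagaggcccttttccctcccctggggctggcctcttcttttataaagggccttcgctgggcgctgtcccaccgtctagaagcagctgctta
Krt18, chr15:102027966-102028265, plus strand: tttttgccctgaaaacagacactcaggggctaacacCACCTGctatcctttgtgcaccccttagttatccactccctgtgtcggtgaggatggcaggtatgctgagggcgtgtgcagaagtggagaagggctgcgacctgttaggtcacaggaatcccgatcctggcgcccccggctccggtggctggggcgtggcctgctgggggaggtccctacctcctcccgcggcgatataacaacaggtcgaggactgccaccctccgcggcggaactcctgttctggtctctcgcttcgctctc
Epcam, chr17:87635729-87636028, plus strand: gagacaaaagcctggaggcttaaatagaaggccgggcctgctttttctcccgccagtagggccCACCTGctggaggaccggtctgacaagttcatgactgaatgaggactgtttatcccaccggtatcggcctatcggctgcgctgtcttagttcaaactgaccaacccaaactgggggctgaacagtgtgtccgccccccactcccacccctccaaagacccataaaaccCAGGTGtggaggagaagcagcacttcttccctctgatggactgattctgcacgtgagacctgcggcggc
The match began 111 bases before the start in Krt8, 214 bases before it in Krt18, and 187 and 19 bases before it in Epcam. Promoters were found for 7 members, Krt7, Krt8, Krt18, Epcam, Gata3, Foxa1 and Kit, and not for Krt19, Cdh1 and Ehf. Searched on both strands, CAGGTG was present in 5 of the 7 (Krt7 and Foxa1 besides the 3 shown), against 20.2% of all 32851 promoters of this length. In all, 9 motifs were searched. The wider E-box CANNTG, which includes CAGGTG, was in 7 of 7 (72.3% of all promoters), the GC box GGGCGG in 5 (35.7%), and the forkhead motif TGTTTAC in Foxa1 alone (3.65%). The GATA motif, spelled AGATAA, was in Krt8 alone (11.2%). The TATA box, spelled TATAAA, was likewise in Krt8 alone (13.6%). The box spelled CCAAT was in Foxa1 alone (37.4%). Neither the ETS motif CCGGAAG (8.86%) nor the AP-1 motif TGANTCA (7.81%) was found in these windows. A match is a string of letters and no measure of binding. With genotype means removed, Krt7 and Foxa1 had Pearson correlations of -0.17 to 0.31 with Krt8, Krt18 and Epcam in log2 CPM. Any part of the motif in levels that moved together was not tested.

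All 10 genes had higher mean levels in knockout than in wild-type glands, by log2 fold changes of 0.04 to 0.62, and none reached the threshold, an adjusted p-value under 0.05 by the quasi-likelihood test of edgeR. Of all genes tested, 48.3% had a fold change above 0 and 0.055% passed the threshold, 0.0472% as higher in knockout. The median log2 fold change was 0.30 over the 10 genes and -0.01 over all genes tested. At an unadjusted p-value under 0.05 stood 4 members, Cdh1, Ehf, Gata3 and Krt8, all higher in knockout; of all genes, 12.4% did, 6.31% higher and 6.08% lower in knockout. With DESeq2, 0 members and 1.15% of all genes passed the threshold, and 4 members and 13% of all genes had an unadjusted p under 0.05. With the share of reads in milk protein genes as a covariate, 0 members and 6.75% of all genes stood there. In every member the 2 groups overlapped, while 1.32% of all genes had groups that did not, 0.786% with knockout above. With one library left out, the count at an unadjusted p under 0.05 ran from 0 without Wild-Type 2, where 8.14% of all genes stood there, to 5 without Wild-Type 4, where 15.2% did. It was 1 without Knockout 2, Knockout 6, Wild-Type 3 or Wild-Type 5, with 10.2% to 11% of all genes. The 10 genes thus shared the sign of a difference that for none of them passed the test over all genes. Nothing in the labels says that the samples of a group came from separate animals. If they did not, p-values measure only the spread between these samples and not that between animals.

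**Figure D1:**
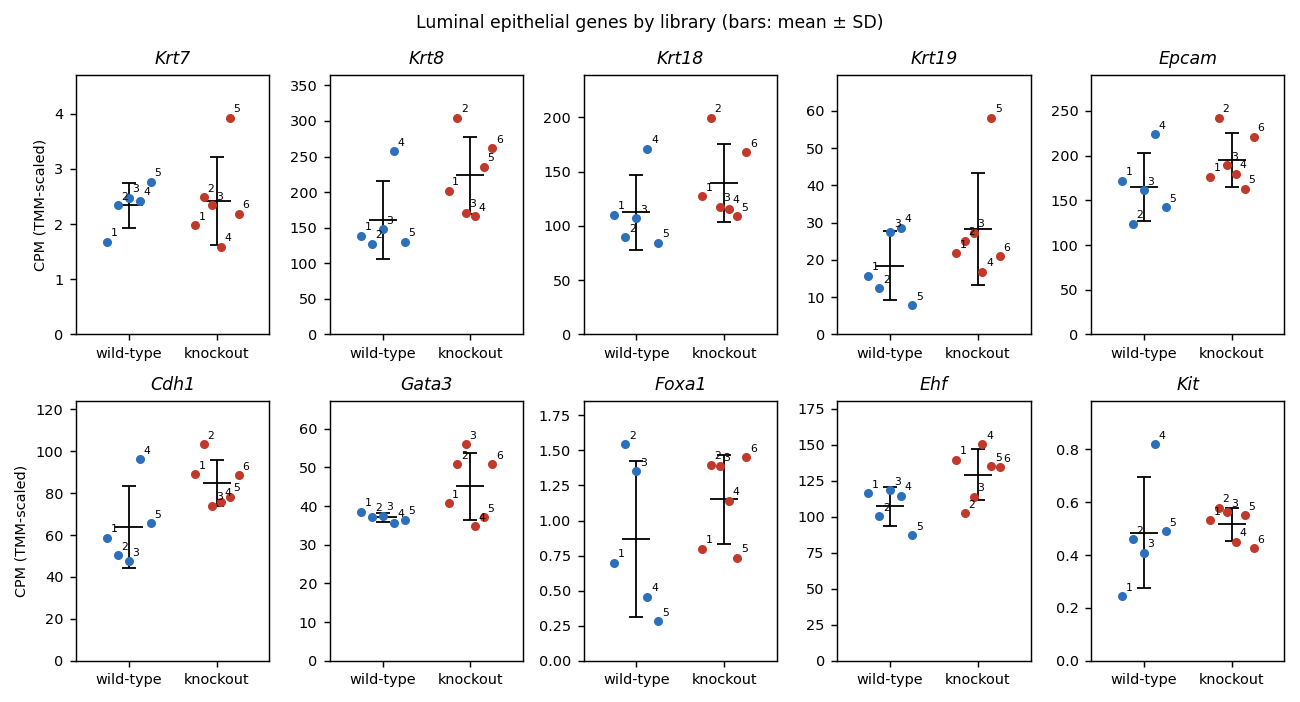
CPM of each of the 10 genes (vertical axes from 0, TMM-scaled) in 5 wild-type (blue) and 6 knockout (red) libraries, with replicate numbers beside the points and mean ± SD as bars. The groups overlap in every panel, Wild-Type 4 stands above the other wild-type libraries in Krt8, Krt18, Epcam and Cdh1, and Gata3 is within 35.7 and 38.6 CPM in all wild-type libraries.

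**Figure D2:**
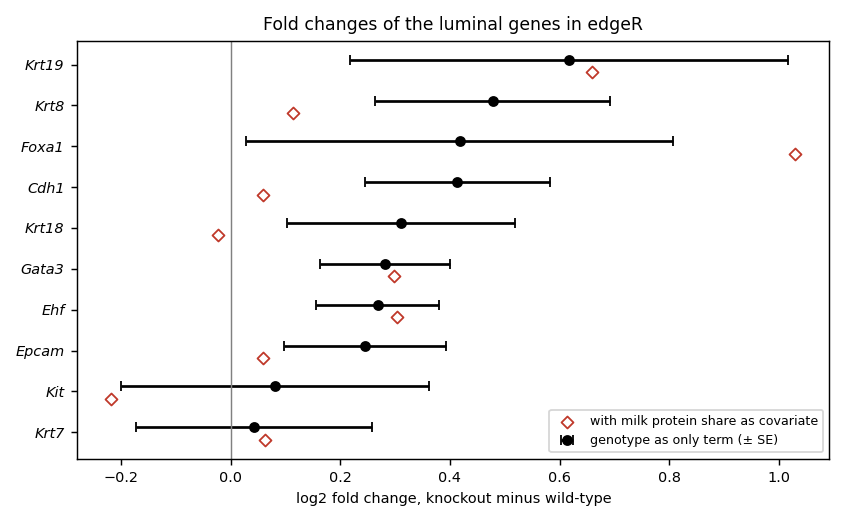
Log2 fold change of each gene, knockout minus wild-type (horizontal axis), from edgeR with genotype as the only term (black, ± SE) and with the share of reads in milk protein genes as a covariate (open diamonds). With the covariate, Krt8, Krt18, Epcam and Cdh1 lie between -0.02 and 0.11, Gata3, Ehf and Krt19 are at 0.30, 0.30 and 0.66, and Kit is at -0.22.

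Of the keratins, Krt8 (ENSMUSG00000049382, chromosome 15, 101996698 to 102004482, minus strand, GRCm38) had 139, 128, 148, 258 and 130 CPM in Wild-Type 1 to 5 and 202, 304, 171, 166 and 235 CPM in Knockout 1 to 5, with 262 CPM in Knockout 6. All knockout libraries lay above 4 of the 5 wild-type libraries, and Wild-Type 4 lay among the highest knockout values. The means were 223 CPM ± 54.0 (SD, n = 6) and 160 CPM ± 54.9 (SD, n = 5), with a log2 fold change of 0.48 ± 0.21 (SE; adjusted p = 0.396 by edgeR). Without Wild-Type 4 the log2 fold change was 0.72 (edgeR adjusted p = 0.151). A processed pseudogene, Krt8-ps, shares 43.0% of the 31-base words of the Krt8 coding sequence and was not among the listed transcripts. Whether reads from it were assigned to Krt8 was not tested. The gene Gm36026 overlaps Krt8 on the opposite strand.

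Krt18 (ENSMUSG00000023043, chromosome 15, 102028180 to 102032027, plus strand), whose product pairs with Krt8, lies 23697 bases from Krt8. It had 110, 89.5, 107, 171 and 84.6 CPM in Wild-Type 1 to 5 and between 109 and 199 CPM in knockout, with a median of 123 CPM. As for Krt8, the highest libraries were Knockout 2, Wild-Type 4 and Knockout 6. The means were 140 CPM ± 36.1 (SD, n = 6) in the knockout glands and 112 CPM ± 34.5 (SD, n = 5) in the wild type, a log2 fold change of 0.31 ± 0.21 (SE; adjusted p = 0.567 by edgeR), and 0.52 without Wild-Type 4 (adjusted p = 0.235) but 0.19 without Knockout 2 (adjusted p = 0.746). The pseudogene Gm5200 shares 10.5% of its 31-base words.

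Krt19 (ENSMUSG00000020911, chromosome 11, 100140810 to 100148665) varied most of the 10 genes, 7.43-fold between the lowest and the highest library. It had 15.8, 12.4, 27.4, 28.7 and 7.82 CPM in Wild-Type 1 to 5 and 21.8, 25.1, 27.3, 16.8, 58.1 and 21.1 CPM in Knockout 1 to 6. A single library, Knockout 5, lay far above the rest, and the same library had the highest Krt7. The log2 fold change was 0.62 ± 0.40 (SE; adjusted p = 0.557 by edgeR) and 0.29 without Knockout 5. Krt7 (ENSMUSG00000023039, chromosome 15, 101411043 to 101430313) was scarce, at 1.68 to 2.77 CPM in wild-type and 1.59 to 3.93 CPM in the knockout, from 48 to 107 reads. Its log2 fold change of 0.04 ± 0.21 (SE; adjusted p = 0.955 by edgeR) was -0.14 without Knockout 5 and -0.06 without Wild-Type 1. Gm671 overlaps it on the opposite strand.

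Levels of different genes were compared on the TPM scale, which allows for transcript length. Krt8 averaged 58.7 TPM and Krt18 47.5 TPM over the 11 libraries, with Krt8 above Krt18 in 11 of 11, whereas Krt19 averaged 8.94 TPM and Krt7 0.756 TPM. The ratio of Krt8 to Krt18 in TPM ran from 1.15 to 1.74 over the 6 knockout libraries, highest in Knockout 5, and from 1.01 to 1.24 over the 5 wild-type libraries. Adding Krt7 to Krt8 and Krt19 to Krt18, the type II to type I ratio was 1.07 ± 0.0727 (SD, n = 6) and 1.00 ± 0.112 (SD, n = 5), a log2 difference of 0.11 that did not pass the threshold (exact two-sided permutation test over 462 splits, p = 0.212, 0.424 adjusted over the 2 ratios tested). With 1 library left out, this difference ran from 0.07 without Wild-Type 1 to 0.16 without Wild-Type 5. In Knockout 5 the high Krt8 to Krt18 ratio went with the high Krt19, and its type II to type I ratio of 1.15 was within the range of the wild-type libraries, 0.892 to 1.16. The other ratio set luminal keratins against basal ones, Krt8 plus Krt18 over Krt5 plus Krt14, the keratin pair of myoepithelial cells. It was 4.97 ± 0.651 (SD, n = 6) in the knockout glands and 5.12 ± 1.94 (SD, n = 5) in the wild type (exact two-sided permutation test, p = 0.935, adjusted p = 0.935). Its highest value, 8.31, was in Wild-Type 4, and the others ran from 3.40 to 5.62. The log2 difference of 0.02 was 0.21 without Wild-Type 4, and it was below 0 in 6 of the 11 fits that left out 1 library, down to -0.11 without Wild-Type 5. Of the basal keratins, Krt5 had a log2 fold change of 0.50 ± 0.20 (SE; adjusted p = 0.366 by edgeR) and Krt14 of 0.35 ± 0.17 (adjusted p = 0.438).

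**Figure D3:**
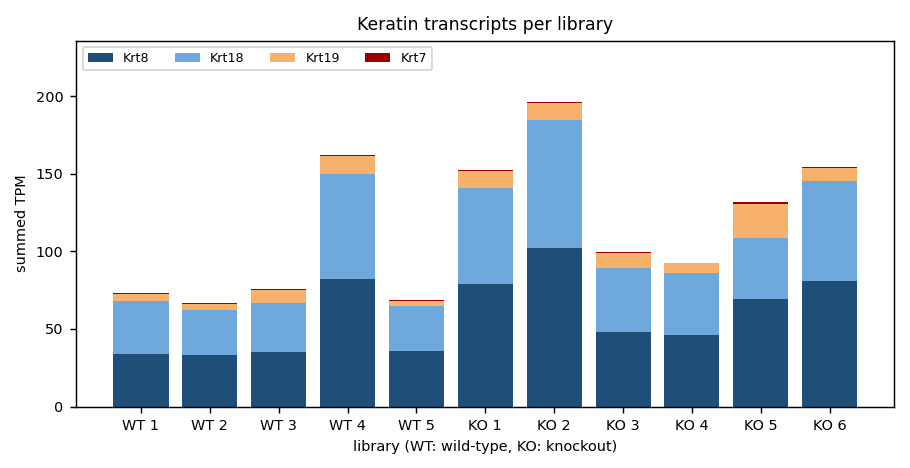
Summed TPM of Krt8, Krt18, Krt19 and Krt7 (stacked, from 0) in each wild-type (WT) and knockout (KO) library. Wild-Type 4 and Knockout 2 have the tallest bars of their genotypes, Krt8 and Krt18 make up most of each bar, and the Krt19 segment is widest in Knockout 5, at 21.6 TPM.

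Of the adhesion genes, Epcam (ENSMUSG00000045394, chromosome 17, 87635979 to 87651129) was the most abundant member per length, at 110 TPM on average. It had 172, 124, 161, 224 and 142 CPM in Wild-Type 1 to 5 and between 163 and 242 CPM in knockout, with a median of 185 CPM. Only Knockout 2 exceeded Wild-Type 4. The means of 195 CPM ± 30.1 (SD, n = 6) and 165 CPM ± 37.9 (SD, n = 5) gave a log2 fold change of 0.25 ± 0.15 (SE; adjusted p = 0.518 by edgeR). It was 0.16 without Wild-Type 2 and 0.39 without Wild-Type 4. Nearly all of its reads, at least 99.9% in every library, were assigned to 1 of the 3 listed transcripts, and its coding sequence shares none of its 31-base words with another gene.

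Cdh1 (ENSMUSG00000000303, chromosome 8, 106603351 to 106670246) had the smallest p-value of the 10 genes. It had 58.7, 50.4, 47.4, 96.2 and 65.7 CPM in Wild-Type 1 to 5 and 89.0, 103, 74.0, 75.9, 78.3 and 88.7 CPM in Knockout 1 to 6. All knockout libraries lay above 4 of 5 wild-type libraries, and Wild-Type 4 was second only to Knockout 2. The means were 84.9 CPM ± 11.1 (SD, n = 6) and 63.7 CPM ± 19.5 (SD, n = 5), the log2 fold change 0.41 ± 0.17 (SE; adjusted p = 0.360 by edgeR). Without Wild-Type 4 it was 0.62 (edgeR adjusted p = 0.128), and without any other single library between 0.32 and 0.45.

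Of the 3 transcription factors, Gata3 (ENSMUSG00000015619, chromosome 2, 9857078 to 9890034) had 38.6, 37.3, 37.5, 35.7 and 36.5 CPM in Wild-Type 1 to 5 and 40.7, 50.9, 56.0, 34.8, 37.2 and 50.9 CPM in Knockout 1 to 6. The coefficient of variation of CPM was 2.96% over the wild-type and 19.2% over the knockout libraries, but on the TPM scale it was 9.41% and 21.7%. In CPM, 4 knockout libraries lay above all wild-type libraries and Knockout 4 lay below them all, while in TPM Knockout 4, at 10.9 TPM, lay within the wild-type range of 10.1 to 12.8 TPM. The log2 fold change was 0.28 ± 0.12 (SE; adjusted p = 0.369 by edgeR). Gata3 is also a T cell gene, and in Wild-Type 2 and Wild-Type 5, the libraries with the most lymphocyte RNA, it was within the range of the other wild-type libraries. Gm13256 and 4930412O13Rik overlap Gata3 on the opposite strand, and Gm13256 shares 4.99% of its 31-base words.

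Ehf (ENSMUSG00000012350, chromosome 2, 103263433 to 103303278) was the most abundant of the factors, at 79.5 TPM against 13.8 TPM for Gata3 and 0.321 TPM for Foxa1. It had 116, 100, 118, 115 and 87.0 CPM in Wild-Type 1 to 5 and 140, 102, 114, 150, 135 and 134 CPM in Knockout 1 to 6, so that 4 knockout libraries lay above all wild-type libraries. The log2 fold change was 0.27 ± 0.11 (SE; adjusted p = 0.369 by edgeR). Knockout 4 had the highest Ehf and the lowest Gata3 of all libraries in CPM. Of the 5 listed Ehf transcripts, the leading one took 90.1% ± 0.933 (SD, n = 6) of the gene's reads in the knockout glands and 91.4% ± 1.53 (SD, n = 5) in the wild type.

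Foxa1 (ENSMUSG00000035451, chromosome 12, 57540628 to 57546916) was at the low end of detection, with 8 to 51 reads per library. It had 0.700, 1.54, 1.35, 0.455 and 0.281 CPM in Wild-Type 1 to 5 and between 0.734 and 1.45 CPM in the knockout, with a log2 fold change of 0.42 ± 0.39 (SE; adjusted p = 0.692 by edgeR). It was 0.19 without Wild-Type 5, 0.26 without Wild-Type 4, 0.65 without Wild-Type 3 and 0.72 without Wild-Type 2. Wild-Type 4, high in the keratins and adhesion genes, was among the lowest in Foxa1. Hormone-sensing luminal genes were scarce, summing to 13.2 to 21.5 CPM per library. Of the 8 listed for that cell type, 4 were tested, of which 3 were above 0 (median 0.07). The threshold was passed by 0 of them, against 0.055% of all genes tested. An unadjusted p under 0.05 was found for 1, against 12.4% of all genes tested. That gene was Wnt4, a ligand made by hormone-sensing cells, at 0.605 CPM with and 0.379 CPM without Cre on average (log2 fold change 0.66 ± 0.27, SE; adjusted p = 0.359 by edgeR). The genes Pgr, Areg, Prom1 and Tnfsf11 were below the filter on low counts. Esr1, the estrogen receptor gene, had a log2 fold change of -0.19 ± 0.21 (SE; adjusted p = 0.750 by edgeR) at 7.14 CPM in the knockout glands and 8.15 CPM on average in wild-type glands.

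Kit (ENSMUSG00000005672, chromosome 5, 75574916 to 75656722) had 7 to 27 reads per library, 0.245 to 0.820 CPM in wild-type and 0.427 to 0.580 CPM in the knockout. Its log2 fold change of 0.08 ± 0.28 (SE; adjusted p = 0.933 by edgeR) was -0.09 without Wild-Type 1 and 0.37 without Wild-Type 4. The 2 listed Kit transcripts differ by an insert of 12 bases from coding position 1538, printed here in capitals between 9 flanking bases on each side, 5′ to 3′, because the deposited tables assign Kit reads wholly to one form or the other.
Kit insert, transcript ENSMUST00000005815: catttaaagGTAACAACAAAGagcaaatcc
All Kit reads went to the form without the insert in 9 libraries (5 knockout and 4 wild-type) and to the form with it in 2 (1 of each genotype), which at so few reads does not measure the proportion of the forms. Mast cell genes, 8 in all of which 4 were tested, summed to 1.19 to 2.93 CPM in the knockout glands and 0.722 to 5.05 CPM in the wild type. Their part in the Kit values was not tested. Kitl, the gene of the Kit ligand, averaged 1.63 CPM in the knockout glands and 1.16 CPM in the wild type (log2 fold change 0.49 ± 0.22, SE; adjusted p = 0.387 by edgeR).

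Ordered by mean TPM, the members ran Epcam, Ehf, Krt8, Krt18, Gata3, Cdh1, Krt19, Krt7, Foxa1 and Kit. Neighbours kept this order in 11 of 11 libraries except for Ehf above Krt8 (10), Gata3 above Cdh1 (10) and Cdh1 above Krt19 (9). Epcam ranked 302 among all genes and Kit 13823. The mean of the highest was 110 TPM and that of the lowest 0.0694 TPM.

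Over the 11 libraries, with the mean of each genotype removed, Krt8, Krt18, Epcam and Cdh1 moved as a block. The 6 combinations of these 4 genes had Pearson correlations of log2 CPM between 0.74 and 0.94 (Spearman 0.43 to 0.94), given as a description with no test because the genes were grouped after their values were seen. Krt18 and Epcam stood closest, at 0.94. Much of this rested on Knockout 2 and Wild-Type 4. Without these 2 libraries the 6 correlations ran from 0.16 to 0.85, with 0.85 for Krt18 and Epcam and 0.60 for Krt8 and Krt18. Ehf had correlations of -0.17 to 0.01 with the 4 genes, and without the same 2 libraries 0.42 with Krt18, 0.30 with Epcam, 0.23 with Krt8 and -0.29 with Cdh1. Its correlation with Gata3 was -0.56, and -0.47 without them. Gata3 had 0.37 with Epcam, 0.35 with Krt18, 0.14 with Krt8 and 0.05 with Cdh1, which were 0.50, 0.46, 0.12 and 0.02 without them. Over all 45 combinations of members the median was 0.08, with 29 above 0, and over all combinations of tested genes it was -0.001. As correlations within one set of libraries, all of these share depth and scaling.

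**Figure D4:**
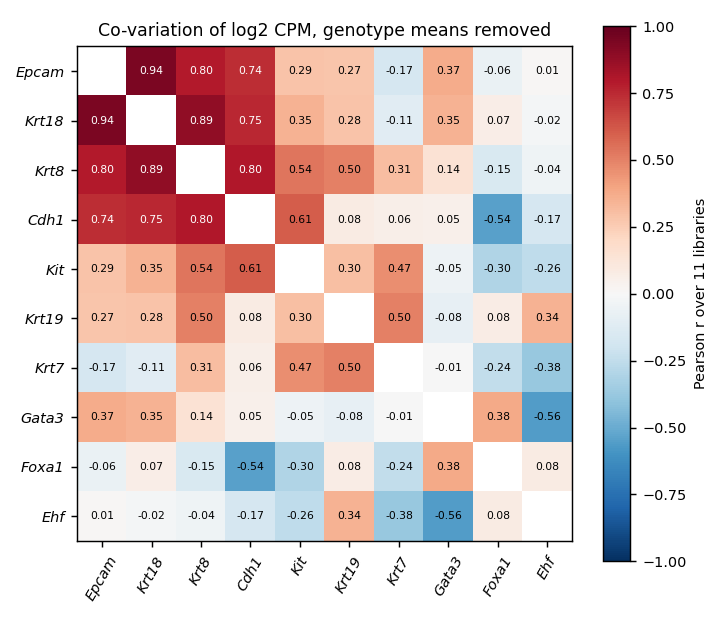
Pearson correlation of log2 CPM over 11 libraries between each combination of the 10 genes after the mean of each genotype was subtracted (colour scale from -1 to 1, values printed in the cells). Epcam, Krt18, Krt8 and Cdh1 form a block of values between 0.74 and 0.94 in the upper left, and Ehf has no high positive value.

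The 5 genes outside the set whose log2 CPM was most like the mean of the 10, by Pearson correlation over the same 11 libraries with the mean of each genotype removed, were Fam83h (0.93), Vat1 (0.93), Pkp4 (0.91), Usp43 (0.90) and Klf10 (0.90). Fam83h encodes a protein that binds keratin filaments, Pkp4 a plakophilin of cell junctions, and Klf10 a zinc finger transcription factor. They were picked as the highest of the genes tested, so the height of these values is no test. The mean did not follow all members alike. Against the mean of the other members, Krt8 had a correlation of 0.80, Gata3 0.19, Krt7 0.17, Ehf -0.06 and Foxa1 -0.13. The 5 genes outside the set were all highest in Knockout 2 or Wild-Type 4. The measure does not see the difference between genotypes, for which 4 of the 5 had a log2 fold change from -0.17 to -0.00 and Vat1 0.18 (edgeR adjusted p from 0.529 to 0.997 over the 5).

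Levels were next set against the share of reads in milk protein genes. Libraries with a lower share had more Cdh1 in nearly unbroken order. The library with the highest share, Wild-Type 3 at 72.9%, had the least Cdh1, at 47.4 CPM, and Wild-Type 4, with the lowest share of its genotype at 66.5%, had 96.2 CPM, beside Knockout 6 with 66.4% and 88.7 CPM. With genotype and milk protein share both in the edgeR fit, log2 CPM of Cdh1 dropped by 0.11 ± 0.02 (SE) per percentage point of the share (unadjusted p = 0.000374, adjusted p = 0.161), that of Krt8 by 0.11 ± 0.04 (adjusted p = 0.445), that of Krt18 by 0.10 ± 0.04 (adjusted p = 0.527) and that of Epcam by 0.05 ± 0.03 (adjusted p = 0.694). Kit had a slope of -0.09 ± 0.06 (adjusted p = 0.725) and Foxa1, at 0.15 ± 0.08 (adjusted p = 0.707), the largest in size, while Krt7, Krt19, Gata3 and Ehf lay between 0.00 and 0.01. No member passed the threshold, which 0.00786% of all genes did. In this fit the genotype term was 0.06 for Cdh1, 0.11 for Krt8, -0.02 for Krt18 and 0.06 for Epcam on the log2 scale (edgeR adjusted p from 0.990 to 0.996). For Gata3 it was 0.30, for Ehf 0.30, for Krt7 0.06, for Krt19 0.66 and for Foxa1 1.03, while that of Kit turned from 0.08 to -0.22. The unadjusted edgeR p of Gata3 went from 0.0337 to 0.0874 and that of Ehf from 0.0330 to 0.0616. The share overlapped between genotypes but was lower on the knockout side, and it was measured in the same libraries. The fit therefore cannot fully tell share and genotype apart. The part of milk protein RNA in the luminal values was not tested. With the share as covariate, the median log2 fold change of the members was 0.09. It was again 0.30 without the covariate and with the 15 milk protein genes left out of the scaling.

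**Figure D5:**
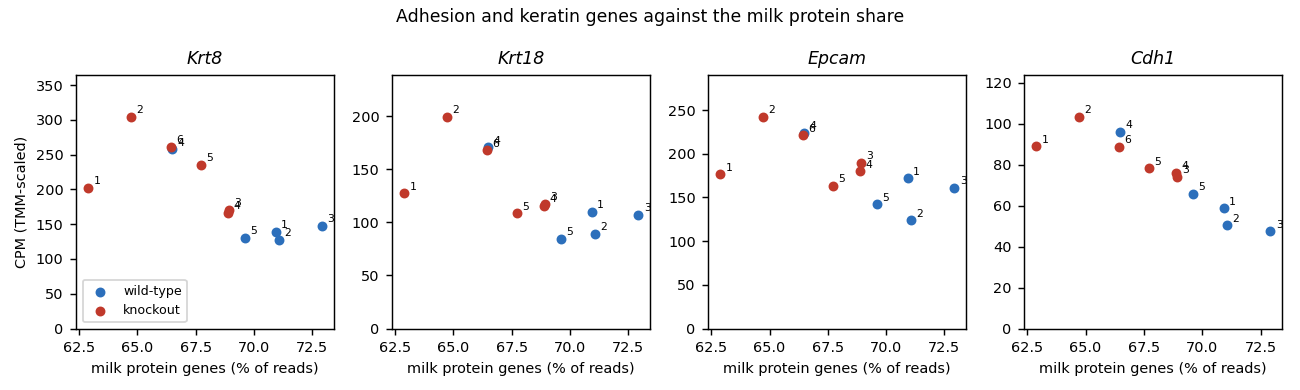
CPM of Krt8, Krt18, Epcam and Cdh1 (vertical axes from 0) against the percentage of reads in 15 milk protein genes (horizontal axis) in 5 wild-type (blue) and 6 knockout (red) libraries, with replicate numbers. Cdh1 goes from 47.4 CPM at a share of 72.9% to 103 CPM at 64.7%, with both genotypes along the same course, and Knockout 1, at 62.9%, lies below Knockout 2 in all 4 panels.

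Genes that work with the members were taken from fixed lists, and in each of the following lists none reached an adjusted p-value under 0.05 by edgeR (counts at an unadjusted p under 0.05, where 12.4% of all genes stood, are given beside them). Of 8 adherens junction partners of E-cadherin, 8 had a fold change above 0, with a median of 0.13 and 0 at an unadjusted p under 0.05. Ctnnb1, the gene of beta-catenin, averaged 184 CPM in the knockout glands and 171 CPM in the wild type (log2 fold change 0.11 ± 0.07, SE; adjusted p = 0.530 by edgeR), and Vezt, vezatin, had 0.23 ± 0.12 (adjusted p = 0.457). Of 8 tested genes that anchor keratins at desmosomes and plectin sites, 5 were above 0 and 3 had an unadjusted p under 0.05. Pkp3, plakophilin 3, was the gene in that list whose groups did not overlap, as in 1.32% of all genes (0.786% with knockout above), at 7.24 to 9.41 CPM in the knockout glands and 4.09 to 6.63 CPM in the wild type (log2 fold change 0.57 ± 0.13, SE; adjusted p = 0.184 by edgeR). Plec, which encodes the keratin linker plectin, had -0.23 ± 0.08 (adjusted p = 0.306).

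Among 7 tested partners of Epcam, which include claudins and the protease St14 with its inhibitors, 5 were above 0 and 1 had an unadjusted p under 0.05. That gene was Cldn1, at 3.20 CPM in the knockout glands and 1.24 CPM on average in wild-type glands (log2 fold change 1.36 ± 0.61, SE; adjusted p = 0.403 by edgeR), and St14 had 0.11 ± 0.10 (adjusted p = 0.680). Of 11 tested luminal and epithelial regulators, 8 were above 0, with a median of 0.15 and 3 at an unadjusted p under 0.05. Tfap2c, a luminal transcription factor, had 0.49 ± 0.16 (adjusted p = 0.286), while Elf5, the factor of alveolar differentiation, had -0.25 ± 0.27 (adjusted p = 0.746) and Esrp1, an epithelial splicing factor, 0.05 ± 0.09 (adjusted p = 0.861). Of 3 tested cofactors of Gata3, 2 were above 0 and 0 had an unadjusted p under 0.05, with Lmo4 at 0.15 ± 0.09 (adjusted p = 0.495) and Ldb1 at -0.03 ± 0.07 (adjusted p = 0.915). Of 11 Kit signalling genes, 7 were above 0 and 4 had an unadjusted p under 0.05, among them Ptpn6, a phosphatase of blood cells, at -0.90 ± 0.25 (adjusted p = 0.269), and Pik3r1 at 0.33 ± 0.11 (adjusted p = 0.310). Ptpn6 was highest in Wild-Type 5, at 29.3 CPM, and Wild-Type 2, at 25.7 CPM, the libraries with the most lymphocyte RNA, and the others ran from 11.3 to 13.6 CPM in the wild type and from 8.06 to 12.9 CPM in the knockout. The part of lymphocyte RNA in the Ptpn6 values was not tested. Of 3 tested luminal progenitor genes, 1 was above 0, Cd14 at 0.38 ± 0.26 (adjusted p = 0.569), and 0 had an unadjusted p under 0.05.

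Among 8 tested repressors of Cdh1 and mesenchymal genes, 6 were above 0 and 1 had an unadjusted p under 0.05. Zeb1 had 0.14 ± 0.10 (log2, SE; adjusted p = 0.597 by edgeR), Zeb2 0.18 ± 0.23 (adjusted p = 0.784) and Snai2 0.10 ± 0.16 (adjusted p = 0.836), all of them at 3.45 CPM or less on average, and Snai1 was below the filter. These are the repressor families named with the marked E-box, and no binding was measured. Vim, the mesenchymal filament gene, had -0.13 ± 0.14 (adjusted p = 0.734). Twist1 had groups that did not overlap (1.32% of all genes), at 0.713 CPM in the knockout glands and 0.421 CPM on average in wild-type glands (0.76 ± 0.23; adjusted p = 0.274).

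Other cell types were read beside the luminal genes. Of 10 myoepithelial genes 10 were above 0, with a median log2 fold change of 0.23, and of 6 fibroblast genes 6, with a median of 0.35. Other keratins, 6 tested and all above 0, had a median of 0.43; Krt5, Krt14 and Krt17 stand both there and among the myoepithelial genes. Their sum was highest, at 233 CPM, in Knockout 2, which was also the library with the most skin RNA and the most Krt8. Of the milk protein genes 13 of 15 were below 0, with a median of -0.24. Csn1s1, the most abundant of them, averaged 174800 CPM in the knockout glands and 206100 CPM in the wild type (-0.24 ± 0.12; edgeR adjusted p = 0.426). In adipocyte genes, the target cells of Cre, 11 of 16 were above 0, with a median of 0.20. No gene of these 5 lists passed the threshold in edgeR; at an unadjusted p under 0.05 stood 2 of 10 myoepithelial, 2 of 6 fibroblast, 1 of 6 other keratin, 3 of 15 milk protein and 7 of 16 adipocyte genes, against 12.4% of all genes tested. The 3 milk protein genes differed in sign. Lao1, an amino acid oxidase of milk, had -0.55 ± 0.15 (log2, SE; adjusted p = 0.263 by edgeR), but Ltf, lactoferrin, had 0.73 ± 0.30 (adjusted p = 0.360) and Spp1, osteopontin, 3.91 ± 1.16 (adjusted p = 0.280), at 27.6 CPM with and 1.81 CPM without Cre on average. Among the other lists, Trp63, the basal transcription factor, had 0.59 ± 0.18 (adjusted p = 0.270), Cfd, the adipocyte gene of adipsin, 0.78 ± 0.18 (adjusted p = 0.218), and Lum, the matrix gene of lumican, 0.61 ± 0.20 (adjusted p = 0.300). Of the 8 lymphocyte genes tested, 8 were below 0 with a median of -1.88 and 4 at an unadjusted p under 0.05, and of 6 skeletal muscle genes 6 were above 0 with a median of 2.14 and 0 at an unadjusted p under 0.05. Endothelial genes had a median of 0.04 (3 of 4 above 0), macrophage genes -0.05 (2 of 5) and mast cell genes -0.12 (2 of 4 tested). Of the skin and melanocyte genes, 2 of 3 tested were above 0. No gene of these lists passed the threshold either, and no list had a gene at 0 in all 11 libraries. The part of any of these cell types in the luminal values was not tested.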

How the data were processed

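RNA-seq tables of 11 inguinal mammary glands were used. Per the file headers, each deposited table lists transcripts with TPM, effective length and estimated counts (estimated reads). The submitters' processing notes name Salmon 1.3.0, DESeq2 1.28.1 and build GRCm38.p6 without roles. The listed length of every member transcript equalled its coding length in GENCODE M21 (GRCm38), so values count coding sequence. A deposited table of normalized counts, a signal on the authors' scale, served as an alternative.

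Estimated counts were summed per gene (57452 of 58204 transcripts matched; the rest held at most 0.265% of a library's reads) and rounded. After filterByExpr, 12716 genes entered edgeR 4.0.16 (TMM, robust quasi-likelihood test, genotype as the only term, Benjamini-Hochberg over all genes). Alternatives used DESeq2 1.42.0, limma 3.58.1 (log2 of TPM + 1), other scalings, no filter, a length offset, a replicate block, milk protein share as covariate and each library left out, the tested genes kept. The fit was tested on simulated data. Replicates differed beyond counting noise (chi-square per degree of freedom 21.9 or more), so none was a copy. Members and lists were chosen with earlier results of these data known; the alternative on deposited normalized counts, the milk share slopes, the promoter and transcript descriptions and the block of 4 genes were added after the data were seen. A rule offered for naming the most abundant and the smallest-p gene of each list, Kitl, and the 5 genes most alike (predicted gene names passed over). All these are given for the pathway lists. For other cell types only some are, chosen after their values were seen, as were Elf5, Zeb1, Zeb2, Snai2, Ltf, Spp1, Krt17 and the Ehf transcripts. Tsc1 is given as the targeted gene.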

Additional observations from a re-analysis of the deposited data

Results flagged for a closer look

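The highest and lowest library of each genotype were checked for a wide gap to the rest, for 10 genes and 2 ratios in 2 groups. Of these 24 checks 2 showed one, where chance gives about 1 in 20, or 1.2. Krt8 in Wild-Type 4 was at 257.5 CPM, against 128 to 148 CPM in the other wild-type libraries. Krt19 in Knockout 5 was at 58.1 CPM, against 16.8 to 27.3 CPM in the other knockout libraries.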

How the results depend on the processing

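No member passed the threshold under any of the 21 alternatives run. The count of genes past the threshold, 7 in the reported fit, was 146 with DESeq2 (86 higher and 60 lower), 3 with limma on log2 TPM, 0 with the replicate block, 1 with milk protein share as covariate, and 5 to 29 with one library left out (29 without Knockout 2, 14 without Wild-Type 4, 13 without Wild-Type 1 or 5). With library size as the only scaling, the median log2 fold change of all genes moved to 0.18 and that of the members to 0.48; with limma on log2 TPM they were 0.14 and 0.51. Relative to all genes, the members' median was higher by 0.30 and 0.36. With the milk share covariate 8 of 10 members were above 0, log2 fold change of Krt18 -0.022 and of Kit -0.22. With one library left out, the log2 fold change ran from -0.14 to 0.14 for Krt7, from -0.085 to 0.37 for Kit, and the log2 difference in the ratio of luminal to basal keratins ran from -0.11 to 0.21. Same-numbered libraries did not deviate together (correlations -0.22 to 0.19, 1 of 5 over 0.1, 1 knockout library closest to its own number). Samples that share a litter or a day need not show this, and the labels name no such link. Whether the numbers pair the samples is therefore not known. With the replicate block the members' median was 0.26, with 1 member and 8.08% of all genes at an unadjusted p under 0.05. Depth gave Foxa1, Kit and Krt7 at most 107 reads per library.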
